A study of Mus musculus with 15 samples.

Results

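Gene expression in mice that had an intracerebral haemorrhage (ICH, a bleed into the brain) and received Nao Yi Kang decoction (NYKD, a herbal preparation) was set against that of mice with sham surgery, 3 days after surgery. The comparison takes the 5 NYKD and the 5 sham libraries out of 15 in the study and covers every gene with enough reads, 17124 of the 54532 genes in the table. The 5 libraries of untreated ICH mice took no part in the fit. Each library came from 1 mouse and holds poly-A-selected RNA of the basal ganglia on the operated side, taken after the vessels had been flushed with saline.

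NYKD mice had the haemorrhage and, starting on the day after surgery, were gavaged with NYKD powder in distilled water at 5.79 g/kg once a day for 3 days. Sham mice had sham surgery and were gavaged with distilled water. All mice are labelled as wild type (WT), were assigned to groups at random and were killed under pentobarbital. The study's design text names the treated group NYKD-M, without saying what the M means, and the labels used here do not give the background strain, sex and age of the mice or the way the haemorrhage was made. The groups differ in both the haemorrhage and the decoction, so the parts of these in any difference below cannot be told apart. What the comparison measures is the distance from sham that was present in treated mice on day 3.

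The basal ganglia are built mainly of GABA-releasing striatal projection neurons that carry dopamine receptors. Blood that enters this tissue brings hemoglobin, whose heme is broken down by heme oxygenase to iron, biliverdin and carbon monoxide, with the iron stored in ferritin or exported. In the days after a bleed, resident microglia and astrocytes become reactive, monocytes enter from the blood and take up debris, and a scar of glia, vessels and matrix forms around the clot.

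The libraries held 16010857 to 17120602 counts in NYKD mice and 15432279 to 19909140 counts in sham mice. Mitochondrially encoded genes took 4.63% to 6.39% of counts in NYKD mice and 5.93% to 7.62% in sham mice, and hemoglobin genes took 0.00209% to 0.00317% in NYKD mice and 0.00124% to 0.00582% in sham mice. The first principal component of log2 CPM (the share of a library's counts on a common scale) held 50.3% of the variance and separated all NYKD from all sham libraries, with sham replicate 1 the sham library nearest to the NYKD side. The second held 17.5% and set sham replicate 5 apart, which also had the fewest genes with a count, 22527. Sham replicates 1 and 5 are therefore named wherever a result rests on them. With both left out, 6015 genes were called, against 5114 with all libraries, and 4523 of them were called in the same direction in both fits.

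Expression of 5114 of the 17124 genes (29.9%) differed between NYKD and sham mice at a Benjamini-Hochberg adjusted p under 0.05 in edgeR's quasi-likelihood test. Of the 17124 genes, 3242 (18.9%) were raised and 1872 (10.9%) were lowered in NYKD mice. The raised genes had a median log2 fold change of 1.03 and the lowered genes one of -0.71, while the median over all tested genes was -0.0016. At least 2-fold changes were called for 1662 raised genes (9.71%) and 536 lowered genes (3.13%), and at least 8-fold changes for 138 raised and 6 lowered genes. For 3297 genes (19.3%) the 5 NYKD libraries did not overlap the 5 sham libraries in CPM, with 2497 genes (14.6%) higher and 800 (4.67%) lower in NYKD mice. Large changes thus lay mostly among raised genes, as the plot of all tested genes shows.

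**Figure D1:**
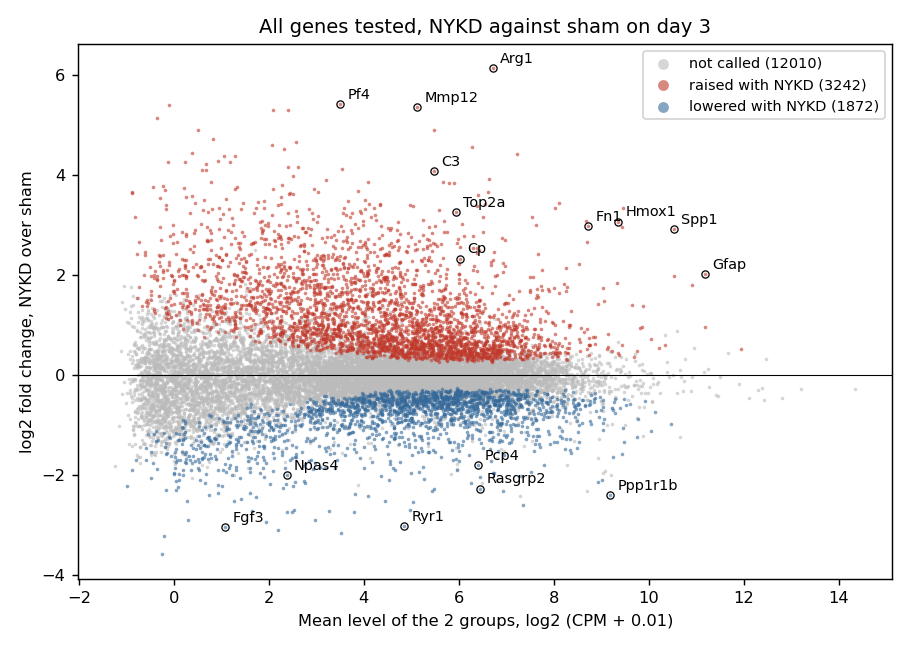
Each point is 1 of the 17124 tested genes, with its mean level over both groups on the x axis, as log2 of CPM + 0.01, and its log2 fold change, NYKD over sham, on the y axis. Red points are the 3242 raised genes, blue points the 1872 lowered genes and grey points the rest; the raised genes reach 6.13 (Arg1), while the labelled lowered genes end at -3.04 (Fgf3).

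The genes were read through 42 lists of cell types and pathways holding 552 tested genes, of which 298 were raised and 50 were lowered. In a share of lists nearly every member rose, against 18.9% of all genes. Wound macrophage, collagen, mitosis, complement and lysosomal genes were among them, and the lists with the lowest medians were those of striatal projection neurons and of GABA neurons. In bulk tissue, fewer cells of a type and less RNA per cell cannot be told apart, and the same holds for more cells and more RNA per cell.

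**Figure D2:**
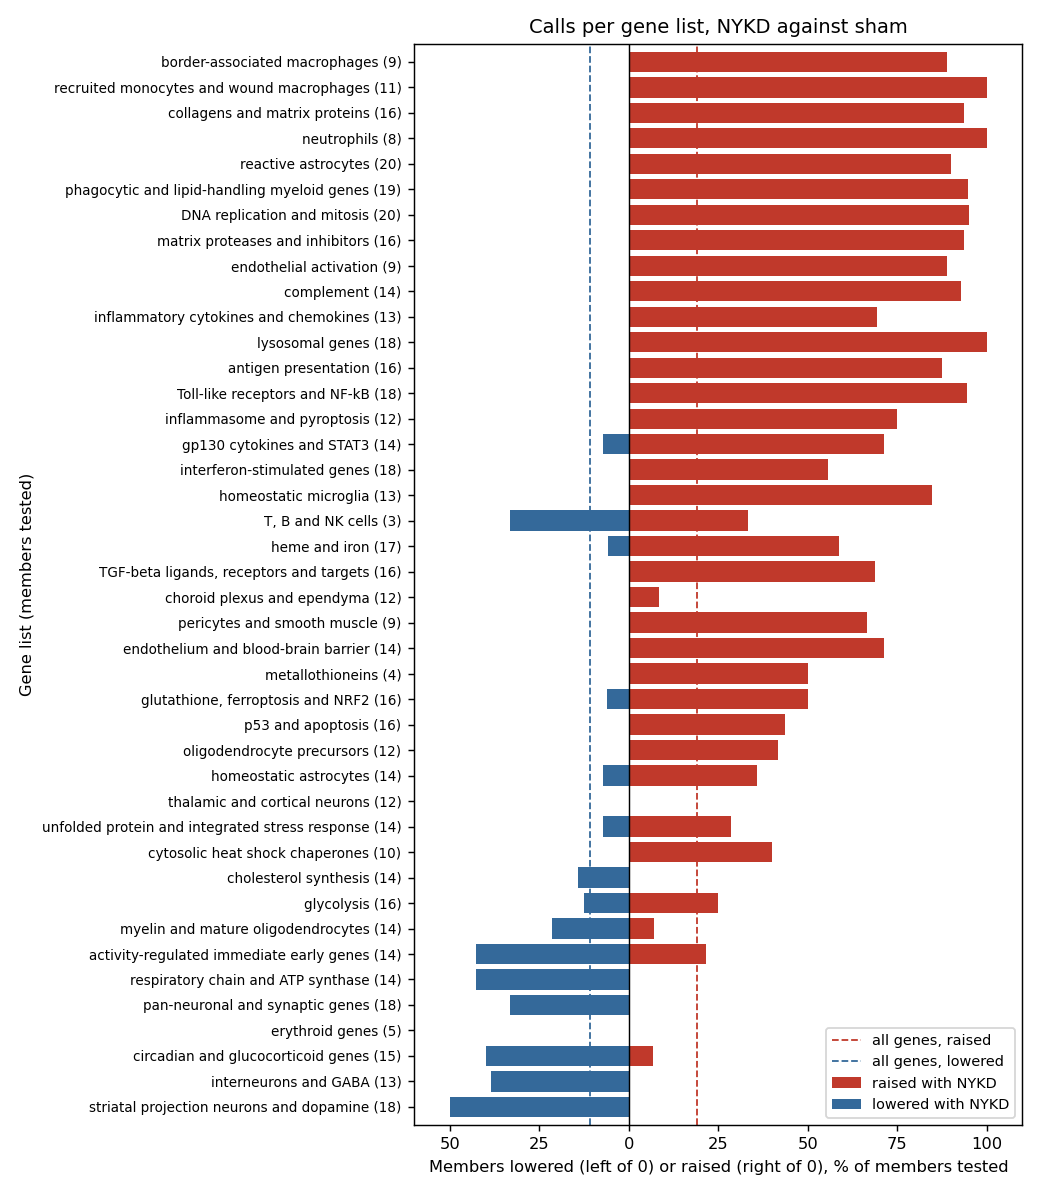
Bars give, for each of 42 gene lists, the percentage of tested members raised (red, right of 0) or lowered (blue, left of 0) in NYKD mice against sham mice, ordered by the median log2 fold change with the highest at the top. Dashed lines mark the shares over all 17124 tested genes, 18.9% raised and 10.9% lowered; all tested members of the lysosomal, wound macrophage and neutrophil lists were raised, and none of the striatal, GABA and pan-neuronal lists.

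Genes with the largest fold changes were picked among called genes whose groups did not overlap in CPM. Their separation follows from that rule. The largest rise was that of Arg1 (ENSMUSG00000019987, chr10:24915221-24927484, minus strand), which encodes arginase 1, an arginine-degrading enzyme of wound-healing macrophages. Arg1 had 173, 209.7, 148, 153 and 349 CPM in NYKD mice, against 7.20, 3.33, 1.35, 2.82 and 0 CPM in sham mice. Every NYKD library lay above every sham library, and sham replicate 5 had no Arg1 count (log2 fold change 6.13 ± 0.73, adjusted p = 0.000176; without sham replicate 1 the log2 fold change was 6.78). Pf4 (ENSMUSG00000029373, chr5:90772435-90773383, plus strand), which encodes a chemokine of platelets and macrophages, had 12.8, 12.1, 15.99, 21.3 and 48.7 CPM in NYKD mice, against 1.06, 0.565, 0.322, 0.384 and 0.222 CPM in sham mice. The groups did not overlap, and NYKD replicate 5 stood above the rest (log2 fold change 5.42 ± 0.52, adjusted p = 4.04e-05). F13a1 (ENSMUSG00000039109, chr13:36867178-37050244, minus strand), which encodes the A chain of the clot-crosslinking coagulation factor XIII and is made by macrophages, had 64.4, 98.5, 73.1, 70.5 and 126 CPM in NYKD mice, against 4.60, 2.71, 1.48, 4.42 and 1.33 CPM in sham mice. All NYKD values were far above all sham values (log2 fold change 4.90 ± 0.37, adjusted p = 1.61e-05).

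Secreted proteases and acute phase genes followed. Mmp12 (ENSMUSG00000049723, chr9:7344381-7369499, plus strand), the elastin-cleaving protease of macrophages, had 59.3, 89.3, 52.4, 37.6 and 101 CPM in NYKD mice, against 2.95, 2.60, 1.35, 1.34 and 0.0550 CPM in sham mice. The groups were separate, with sham replicate 5 near 0 (log2 fold change 5.35 ± 0.56, adjusted p = 7.34e-05). Mmp8, a neutrophil and macrophage collagenase, ran at 6.94 to 17.5 CPM in NYKD mice and 0 to 0.452 CPM in sham mice (log2 fold change 5.30 ± 0.50, adjusted p = 2.81e-05), and Saa3, an acute phase apolipoprotein, at 4.02 to 12.5 CPM in NYKD mice and 0 to 0.452 CPM in sham mice (log2 fold change 5.30 ± 0.62, adjusted p = 8.57e-05; 0.0648 in the fit with the untreated ICH libraries). Mmp13, another collagenase, was present at low levels of 1.66 to 6.21 CPM in NYKD mice and 0 to 0.512 CPM in sham mice (log2 fold change 4.72 ± 0.76, adjusted p = 0.000653; without sham replicate 4 the log2 fold change was 6.53). Thbs1 (ENSMUSG00000040152, chr2:118111876-118127133, plus strand), which encodes thrombospondin 1, an activator of latent TGF-beta, had 181, 258, 243, 223 and 527 CPM in NYKD mice, against 20.5, 13.3, 6.45, 18.6 and 8.09 CPM in sham mice. NYKD replicate 5 had the highest value and no sham library reached the lowest NYKD value (log2 fold change 4.42 ± 0.41, adjusted p = 3.53e-05). F7, which encodes the coagulation factor that tissue factor binds, ran at 5.58 to 20.1 CPM in NYKD mice and 0 to 0.767 CPM in sham mice (log2 fold change 4.51 ± 0.59, adjusted p = 0.000194), and H19, an imprinted non-coding RNA of fetal tissues, at 5.71 to 23.5 CPM in NYKD mice and 0 to 0.944 CPM in sham mice (log2 fold change 4.66 ± 0.64, adjusted p = 0.000262). Tlr8, an endosomal receptor for RNA, ran at 6.45 to 11.3 CPM in NYKD mice and 0 to 0.832 CPM in sham mice (log2 fold change 4.60 ± 0.54, adjusted p = 9.21e-05; without sham replicate 4 the log2 fold change was 5.24).

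Other genes were picked by the smallest p-values, a rule that favours values even between mice. Their rises were smaller than those above. Cp (ENSMUSG00000003617, chr3:19957054-20009145, plus strand), which encodes the ferroxidase ceruloplasmin, a protein that loads exported iron onto transferrin, had 92.3, 130.1, 88.8, 96.95 and 135 CPM in NYKD mice, against 22.02, 22.04, 20.05, 21.9 and 22.7 CPM in sham mice. The sham values spanned only 20.05 to 22.65 CPM and the lowest NYKD value was 88.8 CPM (log2 fold change 2.32 ± 0.14, adjusted p = 1.12e-05). Cd109, a cell surface antagonist of TGF-beta signalling, had 29.9, 53.03, 37.95, 35.3 and 54.3 CPM in NYKD mice, against 6.49, 5.09, 4.25, 5.82 and 5.76 CPM in sham mice. The libraries did not overlap (log2 fold change 2.94 ± 0.20, adjusted p = 1.23e-05). Serping1, which encodes the C1 inhibitor of complement and contact activation, had 33.8, 39.9, 36.5, 33.98 and 43.02 CPM in NYKD mice, against 7.73, 8.20, 4.64, 7.87 and 6.48 CPM in sham mice. It too separated all libraries by group (log2 fold change 2.42 ± 0.16, adjusted p = 1.23e-05). Tlr13, a mouse receptor for bacterial ribosomal RNA, ran at 54.8 to 91.4 CPM in NYKD mice and 6.64 to 11.6 CPM in sham mice (log2 fold change 2.95 ± 0.20, adjusted p = 1.23e-05), Ccnd1, the cyclin of G1 phase, at 105 to 180.2 CPM in NYKD mice and 17.8 to 31.03 CPM in sham mice (log2 fold change 2.43 ± 0.19, adjusted p = 1.57e-05), and Emp1, an epithelial membrane protein found in reactive astrocytes, at 38.2 to 96.3 CPM in NYKD mice and 4.49 to 6.79 CPM in sham mice (log2 fold change 3.40 ± 0.25, adjusted p = 1.57e-05).

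Genes of heme and iron handling were raised for 10 of 17 tested members (58.8%, against 18.9% of all genes), with a median log2 fold change of 0.87. Tfrc, the transferrin receptor, was lowered (log2 fold change -0.64 ± 0.10, adjusted p = 0.000704). Hmox1 (ENSMUSG00000005413, chr8:75093621-75100589, plus strand), the inducible heme oxygenase, had 825, 1354, 1224, 953 and 1518 CPM in NYKD mice, against 236, 246, 59.05, 154 and 8.81 CPM in sham mice. No sham library reached the NYKD range, but the sham libraries themselves ran from 8.81 CPM in replicate 5 to 246 CPM in replicate 2 (log2 fold change 3.06 ± 0.69, adjusted p = 0.00721). The iron exporter gene Slc40a1, which encodes ferroportin, had 38.6, 69.9, 52.7, 54.6 and 66.1 CPM in NYKD mice, against 24.6, 17.5, 15.3, 20.6 and 14.95 CPM in sham mice. It was higher in each NYKD mouse than in any sham mouse (log2 fold change 1.60 ± 0.19, adjusted p = 8.00e-05). Slc11a1, an iron transporter of phagosomes, ran at 50.1 to 103 CPM in NYKD mice and 4.71 to 16.9 CPM in sham mice (log2 fold change 2.72 ± 0.36, adjusted p = 0.000225), and Lrp1, the endocytic receptor that takes up hemopexin-bound heme, at 905 to 1797 CPM in NYKD mice and 424 to 680.2 CPM in sham mice (log2 fold change 1.37 ± 0.20, adjusted p = 0.000307). Among ferritin subunits, Ftl1 rose by 1.84 ± 0.34 (SE) on the log2 scale (adjusted p = 0.00197), and Fth1 changed by 0.52 ± 0.18 (adjusted p = 0.0497; with NYKD replicates 1, 2, 3 and 5 or sham replicates 2, 3, 4 and 5 left out in turn the adjusted p was 0.0565 to 0.14). Hp, the haptoglobin gene, ran at 2.17 to 3.35 CPM in NYKD mice and 0.177 to 2.49 CPM in sham mice (log2 fold change 1.65 ± 0.56, adjusted p = 0.0415; with NYKD replicates 1, 2, 3, 4 and 5 or sham replicates 1, 2, 3 and 4 left out in turn the adjusted p was 0.0566 to 0.107 and without sham replicate 5 the log2 fold change was 2.69). Reads of the ferritin genes can be shared with near-identical copies, so their values are uncertain. The count of raised members was 6 with NYKD replicate 5 or sham replicate 3 left out, and also 6 in the fit that held the untreated ICH libraries. Erythroid genes themselves were not called: the alpha globin gene Hba-a1 had 8.90, 8.58, 12.9, 6.003 and 9.08 CPM in NYKD mice, against 21.5, 16.9, 4.38, 8.13 and 12.1 CPM in sham mice. The groups overlapped (log2 fold change -0.47 ± 0.36, adjusted p = 0.35), its reads can be shared with its twin gene Hba-a2, and all 5 tested erythroid members stayed uncalled.

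Genes of reactive astrocytes were raised for 18 of 20 members, with a median log2 fold change of 2.73 against -0.0016 over all genes. Gfap (ENSMUSG00000020932, chr11:102887336-102900912, minus strand), the astrocyte intermediate filament, averaged 3738 ± 691 CPM in NYKD mice and 929.5 ± 391 CPM in sham mice (SD, n = 5 each). Gfap had 3909.9, 3701, 4388, 2588 and 4103 CPM in NYKD mice, against 1197, 1354, 662, 1032 and 403 CPM in sham mice. The lowest NYKD library was above the highest sham library (log2 fold change 2.01 ± 0.30, adjusted p = 0.000384). Vim, the filament vimentin shared by reactive glia, vessels and macrophages, had 947, 1439, 1317, 837 and 1622 CPM in NYKD mice, against 237, 252, 116, 120.4 and 64.97 CPM in sham mice. NYKD mice were again apart from sham mice (log2 fold change 2.96 ± 0.36, adjusted p = 0.000131). Lcn2, which encodes the iron-siderophore binding protein lipocalin 2, had 176, 269, 159, 133 and 174 CPM in NYKD mice, against 24.9, 22.4, 10.8, 11.9 and 1.77 CPM in sham mice. Sham replicate 5 was the lowest and NYKD replicate 2 the highest (log2 fold change 3.67 ± 0.54, adjusted p = 0.000642). Steap4, a metalloreductase, ran at 22.03 to 44.99 CPM in NYKD mice and 1.29 to 3.31 CPM in sham mice (log2 fold change 3.49 ± 0.28, adjusted p = 1.77e-05).

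Genes of the resting astrocyte changed less (median 0.18). Of 14 members, 5 were raised (35.7%, against 18.9% of all genes) and 1 was lowered (7.14%, against 10.9%). The mean log2 CPM of the list ran from 8.49 to 8.84 in NYKD mice and from 8.29 to 8.55 in sham mice. Aqp4, the water channel of astrocyte endfeet, had 679, 599, 733, 653 and 909.9 CPM in NYKD mice, against 404, 265, 237, 235 and 199.7 CPM in sham mice. It was higher in all NYKD libraries (log2 fold change 1.42 ± 0.20, adjusted p = 0.000235). Aldh1l1, a folate enzyme used as an astrocyte marker, ran at 98.4 to 201 CPM in NYKD mice and 67.9 to 90.2 CPM in sham mice (log2 fold change 0.97 ± 0.17, adjusted p = 0.00131), and the gap junction gene Gja1 at 396 to 509 CPM in NYKD mice and 239 to 332 CPM in sham mice (log2 fold change 0.72 ± 0.14, adjusted p = 0.00246). Ntsr2, a neurotensin receptor of astrocytes, was the member that fell (log2 fold change -0.71 ± 0.16, adjusted p = 0.0056), and the glutamate transporter gene Slc1a2 was not called (log2 fold change -0.04 ± 0.25, adjusted p = 0.925).

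The receptors of interleukin 6 family cytokines act through the shared subunit gp130 and the transcription factor STAT3, and 10 of 14 tested genes of this pathway were raised (median 1.31). Osmr, the oncostatin M receptor, had 48.4, 70.3, 57.99, 47.6 and 61.1 CPM in NYKD mice, against 11.3, 13.5, 8.38, 11.3 and 5.76 CPM in sham mice. No sham mouse came near the NYKD range (log2 fold change 2.51 ± 0.21, adjusted p = 1.98e-05). The shared receptor gene Il6st ran at 216 to 321 CPM in NYKD mice and 91.9 to 136 CPM in sham mice (log2 fold change 1.22 ± 0.15, adjusted p = 0.000111), and Stat3 itself at 129 to 208 CPM in NYKD mice and 62.8 to 79.8 CPM in sham mice (log2 fold change 1.23 ± 0.13, adjusted p = 5.36e-05). The ligands were sparse: Lif was raised (log2 fold change 2.33 ± 0.30, adjusted p = 0.000145), Osm and Il11 were not called (adjusted p = 0.125 and 0.083), and Il6, with 27 counts over all NYKD and 19 over all sham libraries, was too low to test. Cntfr, the receptor for ciliary neurotrophic factor, was the lowered member (log2 fold change -0.47 ± 0.14, adjusted p = 0.0286; with NYKD replicates 2 and 4 or sham replicate 2 left out in turn the adjusted p was 0.0546 to 0.0744).

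Of the genes that mark resting microglia, 11 of 13 were raised (median 1.01). Fcrls, Cx3cr1 and Olfml3 were raised by 2.10 ± 0.27, 1.68 ± 0.22 and 1.78 ± 0.24 on the log2 scale (adjusted p = 0.000152, 0.000197 and 0.000222). P2ry12, the ADP receptor of microglial processes, had 61.8, 80.5, 87.5, 52.2 and 60.8 CPM in NYKD mice, against 46.7, 51.99, 51.1, 48.5 and 60.8 CPM in sham mice. These ranges overlapped and P2ry12 was not called (log2 fold change 0.40 ± 0.15, adjusted p = 0.0548; with NYKD replicate 4 or sham replicate 5 left out in turn the adjusted p was 0.0201 to 0.0263). It was called when libraries were scaled by their totals (adjusted p = 0.0352), by voom with quality weights (0.00587) and with a GC and length correction (0.0404). Siglech was not called either (log2 fold change 0.31 ± 0.16, adjusted p = 0.173).

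Genes of phagocytosis and lipid uptake were raised for 18 of 19 members (median 2.38). Cd68, a lysosomal glycoprotein of phagocytes, had 153, 246, 222, 146 and 317 CPM in NYKD mice, against 41.02, 43.3, 32.4, 38.7 and 12.5 CPM in sham mice. The lowest NYKD value, 146 CPM, was above the highest sham value, 43.3 CPM (log2 fold change 2.69 ± 0.33, adjusted p = 0.000135). Abca1, which exports cholesterol, had 408, 601, 545, 315 and 629 CPM in NYKD mice, against 113, 119, 95.5, 144 and 98.4 CPM in sham mice. It separated the groups fully (log2 fold change 2.14 ± 0.20, adjusted p = 2.91e-05). Cd36, a scavenger receptor for oxidised lipid and apoptotic cells, ran at 51.8 to 159.9 CPM in NYKD mice and 2.33 to 11.2 CPM in sham mice (log2 fold change 3.87 ± 0.43, adjusted p = 0.000101), and Spp1, which encodes the secreted phosphoprotein osteopontin, at 1764 to 4192 CPM in NYKD mice and 16.6 to 646 CPM in sham mice (log2 fold change 2.91 ± 0.71, adjusted p = 0.0114; 0.0515 without a count filter). Apoe was the member not called (log2 fold change 0.55 ± 0.21, adjusted p = 0.0653; with NYKD replicate 4 left out the adjusted p was 0.0047). Lysosomal genes were raised for 18 of 18 members (median 1.70). Ctsb, the protease cathepsin B, had 2248, 3237, 3141, 2131 and 4214 CPM in NYKD mice, against 946, 1008, 733, 899 and 701 CPM in sham mice. It did not overlap between the groups (log2 fold change 1.80 ± 0.20, adjusted p = 6.72e-05), and Grn, which encodes the lysosomal protein progranulin, ran at 375 to 834 CPM in NYKD mice and 79.2 to 169 CPM in sham mice (log2 fold change 2.23 ± 0.26, adjusted p = 8.19e-05).

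Markers of monocytes and wound macrophages were raised for 11 of 11 tested members (median 3.00), Arg1 and Thbs1 among them. Ccr2, the receptor that draws monocytes from the blood, was raised (log2 fold change 4.16 ± 0.49, adjusted p = 9.35e-05; without sham replicate 1 the log2 fold change was 4.76), while Ly6c2, a surface marker of blood monocytes, had 33 counts over all NYKD and 18 over all sham libraries and was too low to test. Itgal, the alpha subunit of the leukocyte integrin LFA-1, ran at 4.08 to 8.02 CPM in NYKD mice and 0.451 to 1.09 CPM in sham mice (log2 fold change 2.83 ± 0.29, adjusted p = 4.43e-05). Macrophages of the brain's borders share genes with them, and 8 of 9 of their markers were raised (median 3.34). Mrc1, the mannose receptor, had 14.2, 23.4, 28.8, 20.1 and 30.2 CPM in NYKD mice, against 2.89, 1.07, 0.645, 3.52 and 2.33 CPM in sham mice. It was higher in every NYKD mouse (log2 fold change 3.48 ± 0.40, adjusted p = 8.41e-05). Stab1, a scavenger receptor, ran at 267 to 686 CPM in NYKD mice and 18.9 to 72.6 CPM in sham mice (log2 fold change 3.45 ± 0.37, adjusted p = 6.72e-05).

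Of 12 neutrophil markers, 8 had enough reads to test and all 8 were raised (median 2.78), 5 in the fit that also held the untreated ICH libraries. Mmp9, a gelatinase of neutrophils and other cells, had 5.88, 4.91, 8.16, 13.3 and 21.4 CPM in NYKD mice, against 1.71, 0.961, 0.838, 1.60 and 1.33 CPM in sham mice. It did not overlap between the groups (log2 fold change 3.05 ± 0.42, adjusted p = 0.000239). Cxcr2, the neutrophil chemokine receptor, had 0.742, 2.61, 1.93, 1.56 and 2.21 CPM in NYKD mice, against 0, 0.170, 0, 0 and 0 CPM in sham mice. Only 1 sham library held any Cxcr2 read. S100a8 ran at 1.26 to 4.32 CPM in NYKD mice and 0.256 to 1.55 CPM in sham mice (log2 fold change 2.16 ± 0.47, adjusted p = 0.00428). The markers that define neutrophils most narrowly were near 0: Ly6g had 1 count over all NYKD and 1 over all sham libraries, Camp had 10 and 17, Retnlg 10 and 23, and Ngp 24 and 71. Raised members such as Mmp9 and S100a8 are also expressed by other myeloid cells.

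Lymphocyte genes were hardly read, with 3 of 16 markers tested. Cd3e had 9 counts over all NYKD and 13 over all sham libraries and Cd8a 20 and 3. Cd79b, a B cell receptor component, was raised at 0.540 to 2.39 CPM in NYKD mice and 0.0640 to 0.791 CPM in sham mice (log2 fold change 1.81 ± 0.56, adjusted p = 0.0286; with NYKD replicates 2, 3 and 5 or sham replicate 3 left out in turn the adjusted p was 0.0526 to 0.0841). Cd4 had 3.88, 14.7, 12.4, 0.720 and 0.717 CPM in NYKD mice, against 7.61, 45.9, 36.3, 44.9 and 49.8 CPM in sham mice. NYKD replicates 4 and 5 and sham replicate 1 had the lowest levels of their groups (log2 fold change -2.51 ± 0.80, adjusted p = 0.0366; with NYKD replicates 1 and 4 or sham replicates 2 and 4 left out in turn the adjusted p was 0.0522 to 0.0581), and without a count filter it was 0.127. The same libraries were lowest for the striatal genes described further on.

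Cytokine and chemokine genes were raised for 9 of 13 tested members (median 1.94), 4 in the fit that also held the untreated ICH libraries, and their levels were low. Ccl2 (ENSMUSG00000035385, chr11:82035571-82037453, plus strand), the ligand of Ccr2, had 20.9, 22.4, 16.6, 24.97 and 32.7 CPM in NYKD mice, against 4.72, 4.13, 1.68, 2.50 and 0.0550 CPM in sham mice. NYKD libraries were all above sham libraries, of which replicate 5 was close to 0 (log2 fold change 3.17 ± 0.59, adjusted p = 0.00225). Cxcl16, a chemokine and scavenger receptor, ran at 11.5 to 22.5 CPM in NYKD mice and 1.94 to 5.03 CPM in sham mice (log2 fold change 2.29 ± 0.29, adjusted p = 0.000133). Il1b, the inflammasome-processed cytokine interleukin 1 beta, had 1.03, 1.86, 1.54, 1.62 and 2.51 CPM in NYKD mice, against 0.354, 0.339, 0.129, 0.768 and 0 CPM in sham mice. The groups were separate, at levels of at most 2.51 CPM (log2 fold change 2.42 ± 0.60, adjusted p = 0.00942). Without sham replicate 4 the log2 fold change was 3.01. In the fit with the untreated ICH libraries the adjusted p was 0.286. Il1b ran from 0.424 to 111 CPM (median 0.725) in those ICH libraries, on a scale that covers all 15 libraries. Tnf had 87 counts over all NYKD and 30 over all sham libraries and Cxcl2 had 32 and 0; both were too low to test.

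Toll-like receptor and NF-kB genes were raised for 17 of 18 members (median 1.42). Tlr4, the endotoxin receptor that also senses heme and damage signals, had 13.1, 22.3, 17.5, 13.7 and 21.3 CPM in NYKD mice, against 2.30, 3.45, 1.68, 3.84 and 3.43 CPM in sham mice. It was higher in all NYKD mice (log2 fold change 2.58 ± 0.25, adjusted p = 3.53e-05), as were Tlr7 (log2 fold change 2.10 ± 0.25, adjusted p = 9.46e-05) and Tlr9 (log2 fold change 1.77 ± 0.22, adjusted p = 0.000133), which sense RNA and DNA in endosomes. The inhibitor gene Nfkbia was the member not called (log2 fold change 0.18 ± 0.14, adjusted p = 0.361). Inflammasome genes were raised for 9 of 12 members. The sensor gene Nlrp3 had 8.90, 10.4, 11.8, 7.20 and 13.9 CPM in NYKD mice, against 2.42, 2.60, 2.77, 3.65 and 1.39 CPM in sham mice. Its groups did not overlap (log2 fold change 2.03 ± 0.27, adjusted p = 0.00017), and Casp1, the protease that the sensor activates, ran at 6.17 to 10.4 CPM in NYKD mice and 0.665 to 2.89 CPM in sham mice (log2 fold change 2.04 ± 0.34, adjusted p = 0.0008).

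Interferon-stimulated genes were raised for 10 of 18 members (55.6%, against 18.9% of all genes), with a median of 1.03. Ifitm3, a membrane protein that blocks virus entry, ran at 24.6 to 59.3 CPM in NYKD mice and 8.70 to 19.8 CPM in sham mice (log2 fold change 1.70 ± 0.28, adjusted p = 0.000913), whereas Irf7 and Isg15 were not called, at 0.56 ± 0.47 and 0.58 ± 0.38 on the log2 scale (adjusted p = 0.4 and 0.272). Antigen presentation genes were raised for 14 of 16 members (median 1.45). Cd74, the invariant chain of MHC class II, had 43.8, 35.3, 61.3, 45.3 and 103 CPM in NYKD mice, against 14.9, 12.1, 6.77, 9.41 and 3.82 CPM in sham mice. It did not overlap between the groups (log2 fold change 2.62 ± 0.38, adjusted p = 0.000462). B2m, the light chain of MHC class I, ran at 249 to 387 CPM in NYKD mice and 78.8 to 166 CPM in sham mice (log2 fold change 1.37 ± 0.21, adjusted p = 0.000491).

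Complement genes were raised for 13 of 14 tested members (median 2.07), from the start of the cascade to its receptors and inhibitors. C3 (ENSMUSG00000024164, chr17:57203970-57228136, minus strand), the central component, had 91.1, 87.2, 74.2, 39.98 and 126 CPM in NYKD mice, against 6.73, 6.84, 3.87, 3.97 and 3.43 CPM in sham mice. Every NYKD library was far above the highest sham library (log2 fold change 4.07 ± 0.32, adjusted p = 1.98e-05). The initiator genes C1qa, C1qb and C1qc rose by 1.74 ± 0.28, 1.64 ± 0.29 and 1.68 ± 0.29 on the log2 scale (adjusted p = 0.000655, 0.00122 and 0.00106). The receptor genes C3ar1 and C5ar1 rose by 3.60 ± 0.43 and 3.37 ± 0.47 (adjusted p = 0.000156 and 0.000416). C2 was not called (log2 fold change 0.03 ± 0.33, adjusted p = 0.959).

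Genes of glutathione, ferroptosis and NRF2 were raised for 8 of 16 members (50%, against 18.9% of all genes). The 1 lowered member was the transferrin receptor gene Tfrc, which the heme and iron list holds too. Slc7a11, the cystine importer that feeds glutathione synthesis, had 121, 137, 101, 145 and 167 CPM in NYKD mice, against 33.6, 24.9, 23.8, 36.99 and 40.7 CPM in sham mice. NYKD levels were above all sham levels (log2 fold change 2.07 ± 0.18, adjusted p = 2.20e-05). Nfe2l2, which encodes the oxidant-responsive factor NRF2, ran at 57.1 to 90.96 CPM in NYKD mice and 21.5 to 29.3 CPM in sham mice (log2 fold change 1.58 ± 0.16, adjusted p = 4.43e-05), and Txnrd1, a thioredoxin reductase, at 139 to 212 CPM in NYKD mice and 76.02 to 89.2 CPM in sham mice (log2 fold change 1.02 ± 0.12, adjusted p = 0.000111). Gpx4, the peroxidase that clears lipid peroxides and restrains ferroptosis, had 187, 186, 229, 168 and 209 CPM in NYKD mice, against 265, 276, 243, 186 and 262 CPM in sham mice. The groups overlapped through sham replicate 4, and Gpx4 was not called (log2 fold change -0.33 ± 0.14, adjusted p = 0.0824; with sham replicate 4 left out the adjusted p was 0.0233). It was called as lowered by DESeq2 (adjusted p = 0.0258), by voom with quality weights (0.0355) and with a filter of 1 CPM in 5 libraries (0.0442).

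Metallothioneins bind zinc and copper. Mt1 (ENSMUSG00000031765, chr8:94179082-94180327, plus strand) had 508, 643, 595, 473 and 515 CPM in NYKD mice, against 446, 311, 272, 195 and 232 CPM in sham mice. All NYKD values were above all sham values (log2 fold change 0.91 ± 0.20, adjusted p = 0.00542). Mt2 had 43.7, 54.8, 43.9, 42.9 and 46.3 CPM in NYKD mice, against 45.4, 23.8, 23.4, 17.8 and 11.5 CPM in sham mice. Sham replicate 1 lay inside the NYKD range (log2 fold change 0.93 ± 0.28, adjusted p = 0.0283; with NYKD replicates 2 and 5 or sham replicates 2, 3 and 4 left out in turn the adjusted p was 0.0584 to 0.0684), and without a count filter it was 0.0864. Mt3, the brain-enriched member, had 191, 194, 229, 114 and 192 CPM in NYKD mice, against 189, 171, 143, 109 and 165 CPM in sham mice. It was not called (log2 fold change 0.24 ± 0.19, adjusted p = 0.359), but was with a correction for GC content and length (log2 fold change 0.68, adjusted p = 0.00392). Not called either was Mtf1, the metal-sensing transcription factor and the fourth gene of the list (log2 fold change 0.02 ± 0.15, adjusted p = 0.939). Their promoters, 250 bases before to 50 bases after the start in RefSeq on GRCm38.p6, are printed as those of the 3 metallothioneins measured; capitals mark the core of the metal response element, searched as TGCACNC or TGCGCNC on both strands. Mt1 lies at chr8:94178839-94179138, plus strand, Mt2 at chr8:94172368-94172667, plus strand and Mt3 at chr8:94152357-94152656, plus strand. The windows held 3, 4 and 1 matches, and 25.7% of 32851 promoters held at least 1.
Mt1: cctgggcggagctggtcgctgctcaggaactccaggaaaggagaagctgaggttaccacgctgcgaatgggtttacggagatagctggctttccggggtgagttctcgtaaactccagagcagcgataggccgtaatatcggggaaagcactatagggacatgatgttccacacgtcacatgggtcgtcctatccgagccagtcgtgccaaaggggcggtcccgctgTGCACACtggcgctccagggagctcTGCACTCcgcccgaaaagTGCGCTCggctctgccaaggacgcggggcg
Mt2: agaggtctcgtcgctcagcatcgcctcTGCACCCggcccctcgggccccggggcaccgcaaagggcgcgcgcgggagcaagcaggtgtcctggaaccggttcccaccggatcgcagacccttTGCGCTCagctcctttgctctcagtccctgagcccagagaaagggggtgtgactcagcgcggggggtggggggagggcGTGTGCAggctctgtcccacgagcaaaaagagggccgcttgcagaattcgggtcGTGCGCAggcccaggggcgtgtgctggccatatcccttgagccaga
Mt3: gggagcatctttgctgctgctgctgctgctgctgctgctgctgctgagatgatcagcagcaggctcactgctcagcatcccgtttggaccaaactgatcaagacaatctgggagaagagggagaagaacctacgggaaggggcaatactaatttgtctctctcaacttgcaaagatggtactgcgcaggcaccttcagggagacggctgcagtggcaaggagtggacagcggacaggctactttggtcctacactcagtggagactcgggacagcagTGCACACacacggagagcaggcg

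Stress and death genes were raised for smaller shares of their lists, 28.6% to 43.8%, against 18.9% of all genes. Of p53 and apoptosis genes, 7 of 16 were raised: Casp8, the initiator caspase of death receptors, ran at 16.3 to 35.9 CPM in NYKD mice and 3.60 to 7.73 CPM in sham mice (log2 fold change 2.08 ± 0.26, adjusted p = 0.000137) and Mcl1, an inhibitor of apoptosis, at 159 to 221 CPM in NYKD mice and 83.3 to 105 CPM in sham mice (log2 fold change 0.99 ± 0.12, adjusted p = 0.000122), while Bax and Trp53 were not called (adjusted p = 0.773 and 0.234). Of unfolded protein response genes, 4 of 14 were raised. Hspa5, the endoplasmic reticulum chaperone BiP, had 446, 557, 519, 484 and 544 CPM in NYKD mice, against 283, 323, 266, 233 and 310.3 CPM in sham mice. It did not overlap between the groups (log2 fold change 0.85 ± 0.13, adjusted p = 0.000402), and Ddit3, the pro-apoptotic factor CHOP, was not called (log2 fold change -0.01 ± 0.17, adjusted p = 0.983). Of cytosolic heat shock genes, 4 of 10 were raised. Hspb1, a small chaperone, had 29.7, 34.3, 31.4, 37.4 and 51.7 CPM in NYKD mice, against 12.7, 10.96, 6.12, 7.93 and 5.98 CPM in sham mice. NYKD mice were all higher (log2 fold change 2.08 ± 0.24, adjusted p = 6.93e-05).

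Genes of DNA replication and mitosis were raised for 19 of 20 members, with a median log2 fold change of 2.36. Top2a (ENSMUSG00000020914, chr11:98992943-99024189, minus strand), the topoisomerase that untangles replicated DNA, had 81.9, 114, 127, 80.9 and 151 CPM in NYKD mice, against 12.9, 12.3, 8.19, 15.5 and 9.03 CPM in sham mice. The groups lay far apart (log2 fold change 3.26 ± 0.23, adjusted p = 1.23e-05). Mki67, the proliferation marker Ki-67, had 91.4, 121, 138, 81.2 and 169 CPM in NYKD mice, against 16.3, 16.7, 14.96, 20.4 and 5.48 CPM in sham mice. It separated the groups as clearly (log2 fold change 3.02 ± 0.32, adjusted p = 5.89e-05). Ccnb1, the cyclin that starts mitosis, had 24.8, 38.1, 37.4, 26.1 and 43.3 CPM in NYKD mice, against 4.90, 2.88, 3.35, 3.84 and 1.94 CPM in sham mice. All NYKD values were higher (log2 fold change 3.33 ± 0.25, adjusted p = 1.57e-05), and its kinase gene Cdk1 ran at 17.3 to 31.1 CPM in NYKD mice and 2.05 to 5.37 CPM in sham mice (log2 fold change 2.83 ± 0.28, adjusted p = 3.52e-05). Kif11, the motor that separates spindle poles, ran at 23.3 to 38.1 CPM in NYKD mice and 4.49 to 6.32 CPM in sham mice (log2 fold change 2.39 ± 0.18, adjusted p = 1.57e-05). Ccne1, the cyclin of the step into S phase, was the member not called, at 6.65 to 13.2 CPM in NYKD mice and 7.81 to 11.6 CPM in sham mice (log2 fold change 0.16 ± 0.21, adjusted p = 0.608).

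Since these genes moved together, the promoters of Top2a, Cdk1 and the uncalled Ccne1 are shown, from RefSeq on GRCm38.p6, with CCAAT boxes and the cell cycle element TTTGAA in capitals where either strand holds them. Top2a lies at chr11:99024140-99024439, minus strand, Cdk1 at chr10:69352863-69353162, minus strand and Ccne1 at chr7:38107441-38107740, minus strand. Top2a held 6 CCAAT and 2 TTTGAA matches, Cdk1 held 3 and 2, and Ccne1 held neither. Birc5 and Tk1, both raised, held neither as well (log2 fold change 2.27 ± 0.33, adjusted p = 0.000345 and log2 fold change 2.01 ± 0.30, adjusted p = 0.000415). Of the 20 genes in the list, 18 matched a promoter and Ccna2 and Aurkb did not. CCAAT was in 83.3% of these 18 promoters and in 37.4% of all 32851, and TTTGAA in 44.4% and 17.9%. The matches describe the letters in these windows and not binding.
Top2a: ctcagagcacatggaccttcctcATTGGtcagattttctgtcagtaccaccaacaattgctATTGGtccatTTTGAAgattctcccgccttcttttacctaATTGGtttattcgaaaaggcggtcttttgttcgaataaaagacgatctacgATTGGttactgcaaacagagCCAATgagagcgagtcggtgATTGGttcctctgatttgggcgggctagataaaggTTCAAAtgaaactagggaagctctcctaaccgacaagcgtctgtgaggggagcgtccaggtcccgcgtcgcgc
Cdk1: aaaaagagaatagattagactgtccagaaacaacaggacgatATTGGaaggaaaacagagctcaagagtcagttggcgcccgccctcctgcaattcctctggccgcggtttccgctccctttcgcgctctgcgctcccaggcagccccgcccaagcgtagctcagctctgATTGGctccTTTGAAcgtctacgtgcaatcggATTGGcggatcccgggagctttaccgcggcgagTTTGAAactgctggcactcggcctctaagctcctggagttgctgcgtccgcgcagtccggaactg
Ccne1: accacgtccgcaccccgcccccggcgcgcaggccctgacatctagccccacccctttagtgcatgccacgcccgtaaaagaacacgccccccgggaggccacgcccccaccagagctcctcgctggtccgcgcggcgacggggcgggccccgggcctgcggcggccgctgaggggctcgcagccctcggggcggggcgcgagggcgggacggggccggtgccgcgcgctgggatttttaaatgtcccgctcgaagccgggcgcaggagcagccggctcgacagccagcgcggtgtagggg

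Matrix genes were raised for 15 of 16 members (median 2.83), and for 12 with a median of 2.02 without NYKD replicate 5. Fn1 (ENSMUSG00000026193, chr1:71585520-71653200, minus strand), the provisional matrix protein fibronectin, had 579.5, 693, 692, 485 and 1304 CPM in NYKD mice, against 90.4, 99.97, 68.5, 140.2 and 79.1 CPM in sham mice. NYKD replicate 5 stood above the other NYKD libraries, and all of them were above the sham libraries (log2 fold change 2.97 ± 0.29, adjusted p = 3.53e-05). Col3a1, a fibril collagen of scars and vessel walls, had 52.9, 44.9, 94.8, 92.3 and 464 CPM in NYKD mice, against 6.08, 4.58, 3.80, 14.3 and 3.10 CPM in sham mice. NYKD replicate 5 was at 464 CPM and the other NYKD libraries were below 95 CPM (log2 fold change 4.56 ± 0.77, adjusted p = 0.00142; without NYKD replicate 5 the log2 fold change was 3.43). The same library carried part of the other fibril collagens: Col1a1 changed by 3.91 ± 0.68 (adjusted p = 0.00173; without NYKD replicate 5 the log2 fold change was 2.83) and Col1a2 by 3.16 ± 0.57 (adjusted p = 0.00224; without NYKD replicate 5 the log2 fold change was 2.21). Col4a1, a basement membrane collagen, ran at 124 to 367 CPM in NYKD mice and 30.2 to 61.6 CPM in sham mice (log2 fold change 2.17 ± 0.30, adjusted p = 0.000272), and Tnc, a matrix protein of wounds, at 55.1 to 178 CPM in NYKD mice and 3.99 to 12.4 CPM in sham mice (log2 fold change 3.29 ± 0.41, adjusted p = 0.000201). Col6a1 was not called (log2 fold change -0.21 ± 0.36, adjusted p = 0.703).

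Proteases and their inhibitors were raised for 15 of 16 members (median 2.23). Adamts1 ran at 52.3 to 95.2 CPM in NYKD mice and 8.09 to 21.2 CPM in sham mice (log2 fold change 2.27 ± 0.25, adjusted p = 6.37e-05) and Adamts9 at 14.96 to 25.3 CPM in NYKD mice and 2.55 to 5.95 CPM in sham mice (log2 fold change 2.14 ± 0.23, adjusted p = 5.70e-05); both cleave proteoglycans. TGF-beta genes were raised for 11 of 16 members: the ligand gene Tgfb1 ran at 26.1 to 65.2 CPM in NYKD mice and 6.81 to 16.1 CPM in sham mice (log2 fold change 2.01 ± 0.26, adjusted p = 0.000186), the receptor gene Tgfbr2 at 97.7 to 176 CPM in NYKD mice and 30.1 to 41.6 CPM in sham mice (log2 fold change 1.84 ± 0.17, adjusted p = 2.81e-05) and the induced matrix gene Tgfbi at 61.2 to 160.2 CPM in NYKD mice and 7.54 to 15.9 CPM in sham mice (log2 fold change 2.85 ± 0.30, adjusted p = 5.74e-05), while Smad3, Smad7 and Tgfb3 were not called (adjusted p = 0.875, 0.196 and 0.359).

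Endothelial genes were raised for 10 of 14 members (71.4%, against 18.9% of all genes), with a median of 0.65. Pecam1, the adhesion molecule of endothelial junctions, had 56.8, 79.6, 75.7, 57.2 and 80.5 CPM in NYKD mice, against 29.2, 24.6, 25.5, 32.1 and 30.4 CPM in sham mice. NYKD libraries were all higher (log2 fold change 1.30 ± 0.14, adjusted p = 4.77e-05). Cldn5, the tight junction claudin of the blood-brain barrier, had 69.5, 68.8, 87.5, 43.8 and 92.8 CPM in NYKD mice, against 51.2, 45.7, 43.8, 35.00 and 41.8 CPM in sham mice. NYKD replicate 4 lay inside the sham range (log2 fold change 0.74 ± 0.18, adjusted p = 0.00966). The transporter genes Mfsd2a, Slco1a4 and Slc2a1 were not called, at -0.15 ± 0.12, -0.18 ± 0.14 and 0.17 ± 0.16 on the log2 scale (adjusted p = 0.373, 0.353 and 0.45). Genes of activated endothelium were raised for 8 of 9 members (median 2.19), 5 in the fit that also held the untreated ICH libraries. Vwf, which encodes von Willebrand factor, the protein that tethers platelets, had 151, 209, 204, 114 and 229 CPM in NYKD mice, against 32.5, 27.01, 22.9, 41.7 and 41.4 CPM in sham mice. The groups were far apart (log2 fold change 2.46 ± 0.22, adjusted p = 2.69e-05). Angpt2, a destabiliser of vessels, ran at 9.30 to 14.6 CPM in NYKD mice and 1.44 to 4.72 CPM in sham mice (log2 fold change 2.12 ± 0.31, adjusted p = 0.000309). Of pericyte and smooth muscle genes, 6 of 9 tested members were raised (66.7%, against 18.9% of all genes). Anpep, an aminopeptidase of pericytes and myeloid cells, ran at 18.6 to 42.00 CPM in NYKD mice and 3.60 to 6.14 CPM in sham mice (log2 fold change 2.55 ± 0.25, adjusted p = 3.53e-05), whereas Kcnj8 and Rgs5 were not called (adjusted p = 0.967 and 0.15).

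**Figure D3:**
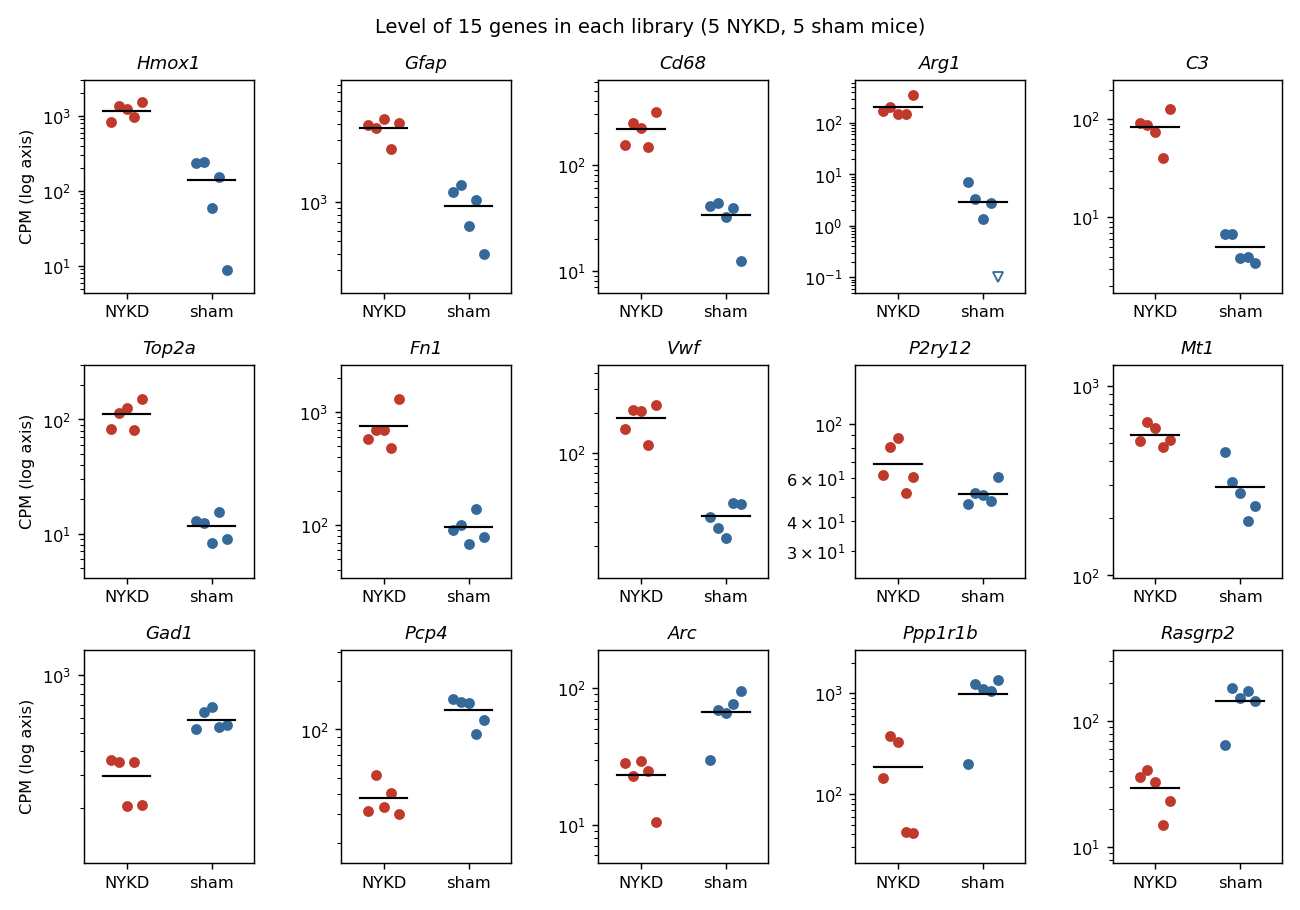
Level of 15 genes in CPM on log axes, 1 point per library and mouse, NYKD (red) left and sham (blue) right, with the mean of each group as a line; the open triangle at the foot of its axis marks the sham library with no Arg1 count. Hmox1, Arg1, C3 and Top2a show no overlap, P2ry12 overlaps, and for Ppp1r1b sham replicate 1 lies among the NYKD libraries at 199 CPM.

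Genes of striatal projection neurons had the lowest median of all lists, -2.03, and 9 of 18 members were lowered and none were raised, against 10.9% of all genes lowered. All 18 had negative log2 fold changes. Ppp1r1b (ENSMUSG00000061718, chr11:98348404-98357796, plus strand), which encodes DARPP-32, the dopamine-regulated phosphatase inhibitor of these neurons, had 146, 375, 326, 42.2 and 41.8 CPM in NYKD mice, against 199, 1226, 1112, 1043 and 1343 CPM in sham mice. NYKD replicates 4 and 5 were lowest, and sham replicate 1 was at 199 CPM while the other sham libraries were at 1043 CPM or more (log2 fold change -2.40 ± 0.70, adjusted p = 0.0256). Drd2, the dopamine D2 receptor, had 35.3, 89.6, 59.5, 14.8 and 16.3 CPM in NYKD mice, against 36.4, 187, 193, 200.5 and 224 CPM in sham mice. NYKD replicates 4 and 5 and sham replicate 1 were again the lowest libraries of their groups (log2 fold change -1.97 ± 0.58, adjusted p = 0.0264; with NYKD replicate 4 left out the adjusted p was 0.0523). Without a count filter the adjusted p was 0.0956 for Ppp1r1b and 0.0976 for Drd2. Rasgrp2 (ENSMUSG00000032946, chr19:6399340-6415216, plus strand), a guanine exchange factor for Rap, had 36.02, 41.3, 33.2, 15.1 and 23.2 CPM in NYKD mice, against 64.6, 184, 153, 173 and 144 CPM in sham mice. It was the only member of the 18 whose groups did not overlap (log2 fold change -2.27 ± 0.31, adjusted p = 0.000296). Over all genes, 4.67% were lower in NYKD mice without overlap. Pde1b, a calcium-dependent phosphodiesterase, had 201, 312, 278, 97.9 and 88.3 CPM in NYKD mice, against 238, 936, 986, 906 and 1149.9 CPM in sham mice. Sham replicate 1 alone among sham libraries fell into the NYKD range (log2 fold change -2.11 ± 0.46, adjusted p = 0.00547). Rgs9 ran at 15.5 to 94.3 CPM in NYKD mice and 56.2 to 389.5 CPM in sham mice (log2 fold change -2.61 ± 0.61, adjusted p = 0.00873). Drd1, the dopamine D1 receptor, was not called with all libraries (log2 fold change -2.16 ± 0.87, adjusted p = 0.0867; with NYKD replicate 2 or sham replicate 1 left out in turn the adjusted p was 0.0357 to 0.0379), with a log2 fold change of -2.94 without NYKD replicate 2.

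The mean log2 CPM of these 18 genes was 6.11, 7.28, 6.74, 4.75 and 4.10 in NYKD mice and 6.19, 8.38, 8.52, 8.42 and 8.70 in sham mice. Sham replicate 1 was the lowest sham library and lay inside the NYKD range, while the other sham libraries lay above it. Without sham replicate 1 all 18 members were called lowered, with a median of -2.27. It was the lowest sham library for this list, so leaving it out was bound to widen the fall of the list's mean. With each library left out in turn, 7 to 18 members were called lowered. The count was 15 without NYKD replicate 2, 14 with both sham replicates 1 and 5 left out, 17 by DESeq2 and 3 without a count filter.

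**Figure D4:**
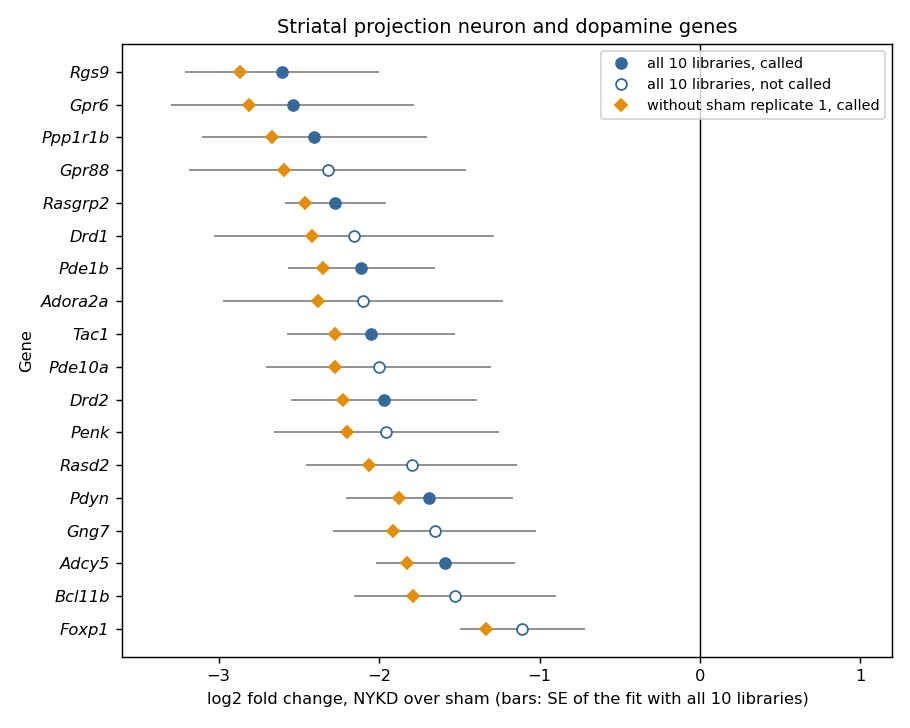
Log2 fold changes, NYKD over sham, of 18 striatal genes in the fit with all 10 libraries (circles with SE bars, filled where called) and in the fit without sham replicate 1 (diamonds, all called). Every gene lies left of 0 in both fits, and 9 circles are filled. Sham replicate 1 was the sham library with the lowest mean over these genes.

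Other neuronal lists had medians nearer to 0. Of genes of interneurons and GABA transmission, 5 of 13 were lowered (38.5%, against 10.9% of all genes), with a median of -0.58. With NYKD replicate 2 or 3 left out, 3 were lowered. Gad1, the enzyme that makes GABA, had 358, 349.8, 207, 352 and 208 CPM in NYKD mice, against 521, 641, 679.8, 538 and 549 CPM in sham mice. The groups did not overlap (log2 fold change -0.99 ± 0.19, adjusted p = 0.00196). Slc32a1, the vesicular GABA transporter, ran at 81.3 to 140.4 CPM in NYKD mice and 147 to 254 CPM in sham mice (log2 fold change -1.02 ± 0.18, adjusted p = 0.00121). Of pan-neuronal genes, 6 of 18 were lowered (33.3%, against 10.9% of all genes), with a median of -0.41. In the fit that also held the untreated ICH libraries, 3 were lowered. Camk2b, a subunit of the synaptic kinase CaMKII, ran at 215 to 413 CPM in NYKD mice and 324 to 940.2 CPM in sham mice (log2 fold change -1.11 ± 0.26, adjusted p = 0.00742). Syp, the vesicle protein synaptophysin, had 485, 244, 369, 463 and 307 CPM in NYKD mice, against 651, 462, 523, 500.1 and 578 CPM in sham mice. NYKD replicates 1 and 4 lay at the lower end of the sham range (log2 fold change -0.54 ± 0.19, adjusted p = 0.0468; with NYKD replicates 2, 3 and 5 or sham replicates 1, 2, 3, 4 and 5 left out in turn the adjusted p was 0.0536 to 0.0979). Its call was also lost with scaling by library totals (0.0533) and in the fit with the untreated ICH libraries (0.0711). Map2, Syn1 and Stmn2 were not called (adjusted p = 0.815, 0.716 and 0.782).

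Markers of neighbouring regions were read in the same libraries. None of the 12 tested genes of thalamic and cortical neurons was called (median 0.10), and their mean log2 CPM ran from 4.44 to 5.96 in NYKD mice and from 4.40 to 5.72 in sham mice. The cortical factor gene Neurod6 had 2.40, 0.560, 5.71, 60.7 and 0.358 CPM in NYKD mice, against 0.354, 1.07, 0.709, 4.74 and 16.2 CPM in sham mice. NYKD replicate 4 and sham replicate 5 stood out (log2 fold change 1.59 ± 1.36, adjusted p = 0.412), and with 1 library left out the log2 fold change ran from -1.04 to 3.07. The thalamus-rich kinase gene Prkcd had 104, 220.3, 198, 198 and 189 CPM in NYKD mice, against 351, 135, 149, 43.5 and 75.5 CPM in sham mice. Sham replicate 1 had the highest value (log2 fold change 0.27 ± 0.46, adjusted p = 0.694). Ttr, the transthyretin of the choroid plexus, had 80.7, 1684, 3917, 2217 and 2112 CPM in NYKD mice, against 49.1, 2395, 161, 597 and 2279 CPM in sham mice. NYKD replicate 1 and sham replicates 1 and 3 were low (log2 fold change 0.87 ± 1.03, adjusted p = 0.559), and of 12 choroid plexus and ependyma genes only Rarres2 was called (log2 fold change 0.81 ± 0.26, adjusted p = 0.0309; with NYKD replicates 1, 2, 3 and 5 or sham replicates 2, 3 and 4 left out in turn the adjusted p was 0.0556 to 0.0882). With sham replicate 5 left out, 4 choroid plexus and ependyma genes were called and the list's median log2 fold change was 1.42, against 0.81 with all libraries. The mean log2 CPM of that list ran from 2.72 to 5.45 in NYKD mice and from 2.36 to 5.49 in sham mice, with sham replicate 1 lowest as it was for the striatal list. The part of neighbouring tissue in the striatal result was not tested.

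**Figure D5:**
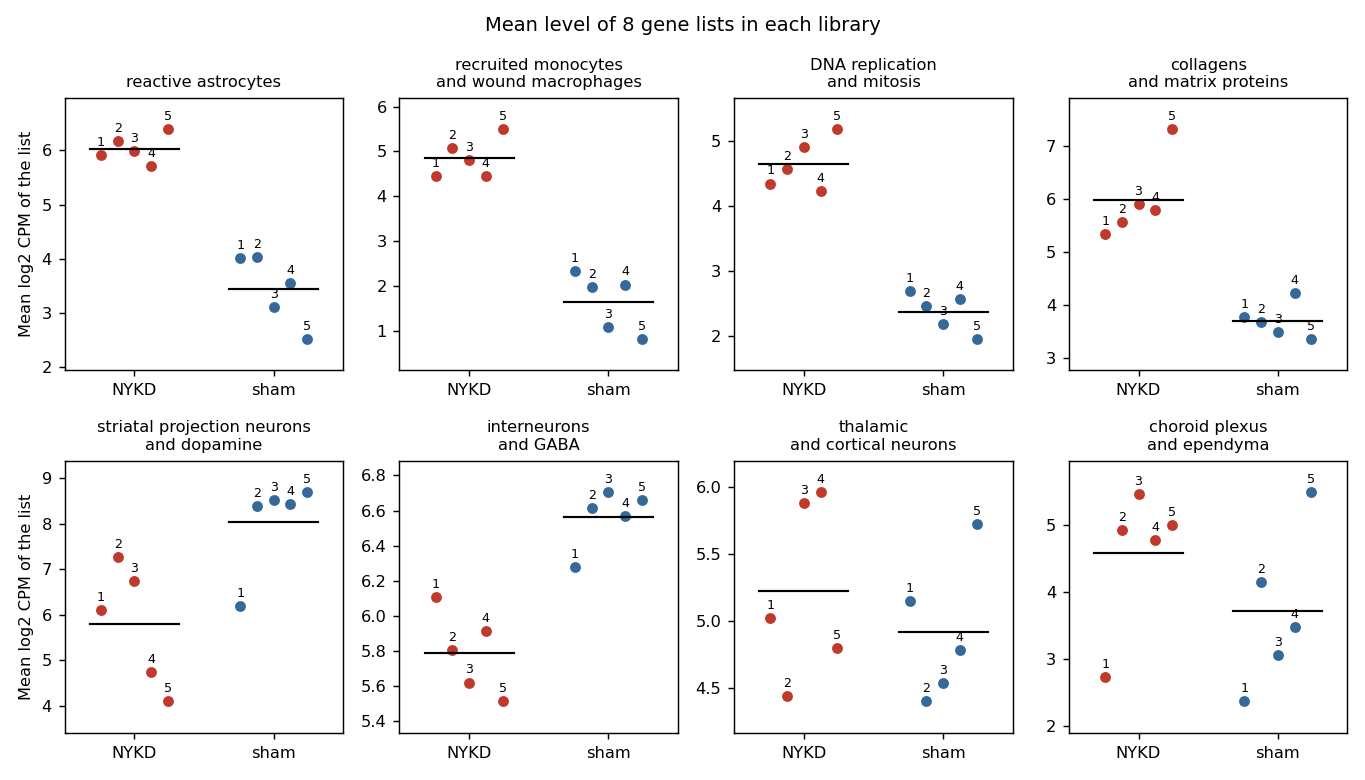
Mean log2 CPM of 8 gene lists in each library, numbered by replicate, NYKD (red) left and sham (blue) right, with group means as lines. The upper lists separate the groups in every library; in the striatal list sham replicate 1 (6.19) lies within the NYKD range of 4.10 to 7.28, and the thalamic and cortical and choroid plexus lists overlap throughout.

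Activity-regulated genes moved in both directions, with 3 of 14 raised (21.4%) and 6 of 14 lowered (42.9%), against 18.9% and 10.9% of all genes. In the fit that also held the untreated ICH libraries 3 were lowered. Arc, a synaptic protein induced by firing, had 28.4, 22.7, 29.3, 24.9 and 10.6 CPM in NYKD mice, against 29.9, 69.8, 66.3, 76.1 and 95.1 CPM in sham mice. The highest NYKD value was just under the lowest sham value, that of replicate 1 (log2 fold change -1.54 ± 0.31, adjusted p = 0.00332). Npas4, a neuron-specific factor induced by calcium entry, had 2.46, 2.86, 1.22, 2.04 and 1.67 CPM in NYKD mice, against 4.78, 12.8, 11.7, 7.74 and 4.43 CPM in sham mice. It did not overlap between the groups (log2 fold change -2.01 ± 0.35, adjusted p = 0.00113), and Nr4a1, an orphan nuclear receptor, ran at 10.8 to 18.5 CPM in NYKD mice and 24.1 to 61.8 CPM in sham mice (log2 fold change -1.60 ± 0.23, adjusted p = 0.000307). Egr1 and Egr2 were lowered as well (-1.23 ± 0.33 and -1.47 ± 0.36, adjusted p = 0.0168 and adjusted p = 0.00863). Jun and Fos, which many cell types induce after injury, rose instead: Jun had 82.2, 94.8, 116, 101 and 108 CPM in NYKD mice, against 62.6, 42.2, 44.4, 39.1 and 36.1 CPM in sham mice. NYKD mice were all higher (log2 fold change 1.16 ± 0.16, adjusted p = 0.000194), and Fos ran at 14.8 to 25.6 CPM in NYKD mice and 10.2 to 14.05 CPM in sham mice (log2 fold change 0.79 ± 0.16, adjusted p = 0.00327).

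The largest falls were picked under the same rule, so their separation follows from it too. Among the largest falls, Ryr1 (ENSMUSG00000030592, chr7:29003344-29125179, minus strand), a calcium release channel, had 9.59, 9.82, 4.75, 3.24 and 4.003 CPM in NYKD mice, against 12.9, 79.01, 62.5, 86.1 and 15.3 CPM in sham mice. Sham replicates 1 and 5 were the lowest sham libraries and came close to the NYKD range (log2 fold change -3.02 ± 0.60, adjusted p = 0.0036). Fgf3, a fibroblast growth factor, ran at 0 to 0.995 CPM in NYKD mice and 1.24 to 7.42 CPM in sham mice (log2 fold change -3.04 ± 0.65, adjusted p = 0.00426), and Col6a4, a collagen VI chain, at 0.360 to 1.31 CPM in NYKD mice and 1.83 to 9.95 CPM in sham mice (log2 fold change -2.73 ± 0.47, adjusted p = 0.00101). Pcp4 (ENSMUSG00000090223, chr16:96467606-96525793, plus strand), a calmodulin-binding protein abundant in striatum, had 31.4, 52.3, 33.3, 40.5 and 30.1 CPM in NYKD mice, against 155, 148, 146, 93.4 and 115 CPM in sham mice. Here sham replicate 1 was the highest sham library and the groups were well apart (log2 fold change -1.81 ± 0.19, adjusted p = 4.18e-05). Slc18a3, the vesicular acetylcholine transporter, had 4.85, 3.17, 2.31, 0.480 and 1.55 CPM in NYKD mice, against 5.31, 13.5, 10.96, 15.6 and 10.03 CPM in sham mice. NYKD replicate 1 came nearest to sham replicate 1 (log2 fold change -2.16 ± 0.47, adjusted p = 0.00503). Slc5a7, the choline transporter, ran at 2.16 to 20.5 CPM in NYKD mice and 20.8 to 50.3 CPM in sham mice (log2 fold change -1.86 ± 0.47, adjusted p = 0.012; 0.0559 without a count filter), and Chat, which makes acetylcholine, was not called (log2 fold change -1.57 ± 0.61, adjusted p = 0.0737; with NYKD replicate 2 or sham replicate 1 left out in turn the adjusted p was 0.0319 to 0.0362). Cyp2s1 ran at 3.30 to 4.30 CPM in NYKD mice and 5.78 to 22.5 CPM in sham mice (log2 fold change -1.86 ± 0.32, adjusted p = 0.000955), Abcc12 at 0.514 to 0.913 CPM in NYKD mice and 1.77 to 5.12 CPM in sham mice (log2 fold change -2.23 ± 0.34, adjusted p = 0.000453) and Mei4 at 0.478 to 1.73 CPM in NYKD mice and 1.83 to 4.77 CPM in sham mice (log2 fold change -1.90 ± 0.41, adjusted p = 0.00456).

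Myelin genes were lowered for 3 of 14 members (21.4%, against 10.9% of all genes) and raised for 1 (median -0.24). With sham replicate 4 left out, 5 were lowered. Opalin, a membrane protein of mature oligodendrocytes, had 13.99, 12.1, 12.3, 11.6 and 10.3 CPM in NYKD mice, against 35.7, 25.2, 27.1, 18.4 and 19.00 CPM in sham mice. No NYKD library reached the sham range (log2 fold change -1.05 ± 0.18, adjusted p = 0.00115). Mog, a surface myelin glycoprotein, ran at 84.4 to 118 CPM in NYKD mice and 118 to 204 CPM in sham mice (log2 fold change -0.58 ± 0.15, adjusted p = 0.0129; 0.0983 in the fit with the untreated ICH libraries). Mbp, the myelin basic protein, had 4666, 4949, 5647, 2582 and 4869 CPM in NYKD mice, against 8568, 7930.1, 6486, 4561 and 4572 CPM in sham mice. The groups overlapped and Mbp was not called (log2 fold change -0.50 ± 0.24, adjusted p = 0.134), but was by voom with quality weights (adjusted p = 0.0383). Genes of oligodendrocyte precursors were raised for 5 of 12 members (41.7%, against 18.9% of all genes). Pdgfra, the receptor for platelet-derived growth factor A, had 171, 177, 154, 152 and 226 CPM in NYKD mice, against 78.7, 68.6, 69.1, 97.8 and 80.3 CPM in sham mice. All NYKD values were higher (log2 fold change 1.16 ± 0.14, adjusted p = 0.000116). Tnr ran at 242 to 309 CPM in NYKD mice and 113 to 200.3 CPM in sham mice (log2 fold change 0.92 ± 0.16, adjusted p = 0.000973), and Olig1 and Sox10 were not called (adjusted p = 0.316 and 0.321).

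Among metabolic genes, 6 of 14 of the respiratory chain were lowered (42.9%, against 10.9% of all genes), with a median of -0.31. DESeq2 called 10 of them lowered. With a GC and length correction the members Cox6a1 and Cox4i1 lost their calls (adjusted p = 0.244 and 0.0797), while Cycs and Cox5a kept theirs. Cycs, the electron carrier cytochrome c, had 73.3, 60.4, 72.2, 70.1 and 73.5 CPM in NYKD mice, against 120.05, 107, 107, 79.9 and 97.8 CPM in sham mice. The groups did not overlap (log2 fold change -0.55 ± 0.12, adjusted p = 0.00459), though reads of Cycs can be shared with processed copies. Glycolysis genes had no common direction, with 4 of 16 raised (25%) and 2 of 16 lowered (12.5%), against 18.9% and 10.9% of all genes. Raised members numbered 1 with NYKD replicate 5, sham replicate 2 or sham replicate 3 left out, and 2 with NYKD replicate 3 left out. Hk2, the inducible hexokinase, had 37.6, 47.7, 50.02, 26.8 and 61.3 CPM in NYKD mice, against 10.9, 10.7, 6.45, 11.01 and 7.31 CPM in sham mice. It was higher in all NYKD mice (log2 fold change 2.27 ± 0.23, adjusted p = 4.21e-05). Eno2, the neuronal enolase, ran at 324 to 533 CPM in NYKD mice and 614 to 996 CPM in sham mice (log2 fold change -0.77 ± 0.17, adjusted p = 0.00567). Cholesterol synthesis genes were called for 2 of 14 members, both lowered (14.3%, against 10.9% of all genes). None was called with sham replicates 1 and 5 both left out. Insig1, which holds back cholesterol synthesis, ran at 40.8 to 61.7 CPM in NYKD mice and 64.5 to 93.7 CPM in sham mice (log2 fold change -0.60 ± 0.15, adjusted p = 0.00979).

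In a list of clock genes and glucocorticoid targets, 6 of 15 members were lowered (40%, against 10.9% of all genes), all of them clock genes. The count of lowered members was 10 by DESeq2 and 4 to 8 with 1 library left out. Dbp, a clock output factor, had 31.2, 27.8, 44.3, 18.7 and 21.2 CPM in NYKD mice, against 34.9, 78.2, 69.2, 55.8 and 70.2 CPM in sham mice. NYKD replicate 3 overlapped with sham replicate 1 (log2 fold change -1.11 ± 0.26, adjusted p = 0.00702). Arntl, which encodes the core clock factor BMAL1, ran at 13.3 to 24.3 CPM in NYKD mice and 22.7 to 37.2 CPM in sham mice (log2 fold change -0.72 ± 0.17, adjusted p = 0.00803), and Per2 at 24.4 to 34.1 CPM in NYKD mice and 28.04 to 67.5 CPM in sham mice (log2 fold change -0.78 ± 0.21, adjusted p = 0.0166). The labels used here do not give the hour at which tissue was taken. The glucocorticoid target gene Fkbp5 was the list's only raised member (log2 fold change 0.47 ± 0.14, adjusted p = 0.0272; with NYKD replicates 2 and 3 or sham replicates 1 and 3 left out in turn the adjusted p was 0.0547 to 0.0968), while the targets Sgk1 and Tsc22d3 were not called (adjusted p = 0.06 and 0.146).

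Levels of 6 genes, chosen after their values were seen, are set beside those of untreated ICH mice on a scale that covers all 15 libraries, with no test. Arg1 had 147 to 344 CPM (median 179) in NYKD mice, 87.6 to 139 CPM (median 129) in untreated ICH mice and 0 to 7.52 CPM (median 2.89) in sham mice. Fn1 had 517 to 1282 CPM (median 687) in NYKD mice, 184 to 429.5 CPM (median 299) in untreated ICH mice and 68.1 to 144 CPM (median 94.5) in sham mice. For Arg1 and Fn1 the NYKD range lay above the ICH range, which lay above the sham range. No other gene whose levels were compared in this way had this order. Among genes outside these 6, the NYKD and ICH ranges overlapped for Gfap, Vim, Lcn2, C3, Spp1, Cd68 and Mki67. Gfap, for example, had 2761 to 4379 CPM in NYKD mice and 2717 to 3661 CPM in untreated ICH mice. Mt1 had 504 to 638 CPM (median 525) in NYKD mice, 619.9 to 1089 CPM (median 829.7) in untreated ICH mice and 199.96 to 466 CPM (median 270.5) in sham mice. Hmox1 had 853 to 1493 CPM (median 1221) in NYKD mice, 522 to 1108 CPM (median 645) in untreated ICH mice and 9.24 to 249 CPM (median 159) in sham mice. The NYKD and ICH ranges overlapped for both. Arc had 10.4 to 29.3 CPM (median 26.5) in NYKD mice, 11.97 to 24.7 CPM (median 20.99) in untreated ICH mice and 31.3 to 99.7 CPM (median 70.6) in sham mice. Its NYKD range held the ICH range, and both were below the sham range. Ppp1r1b had 41.1 to 372 CPM (median 151) in NYKD mice, 69.6 to 1253 CPM (median 255) in untreated ICH mice and 208 to 1409 CPM (median 1105) in sham mice. Its NYKD and ICH ranges both reached into the sham range.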

How the data were processed

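Poly-A-selected RNA from the basal ganglia of 5 NYKD and 5 sham mice was compared, 1 library per mouse. The authors deposited unnormalised counts per Ensembl gene for all 15 libraries. Per the submitters' processing notes, the build was mm10 and the tools included HISAT2 2.0.5 and edgeR 3.22.5, with no role stated. RNA was selected with poly-T beads per the labels' protocols. How reads were counted, with which annotation and whether by strand is not given in the sources used here, so reads of a gene and its antisense partner cannot be told apart. Symbols, coordinates, GC content and lengths came from GENCODE mouse release M21, which matched 54495 of 54532 genes.

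Sample titles gave the groups. Low genes were removed with filterByExpr, libraries were scaled by TMM, and only the 10 NYKD and sham libraries entered edgeR 4.0.16 (R 4.3.3), with 1 coefficient per group, no covariate and robust quasi-likelihood dispersions. The call threshold was a Benjamini-Hochberg adjusted p of 0.05 over all 17124 tested genes, with no fold minimum. Every adjusted p in the text comes from this quasi-likelihood test unless another tool is named. The standard error (SE, after ±) was approximated by dividing the size of the log2 fold change by the root of its F statistic. CPM values are counts relative to the TMM-scaled library size, from edgeR's cpm function, and groups have n = 5. The code was tested on simulated data. A count near 0 limits precision, so genes below the filter are given as summed counts.

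The text names the 12 raised and 12 lowered genes with the largest fold changes among called genes with a mean of 50 counts in the higher group, no overlap between groups and a symbol that is no clone name; the 10 genes with the smallest p; 4 members of each of 42 lists with the smallest p; and a fixed set of 23 genes, leaving out some of them for length and a few that are not reported here. Members named beyond that were chosen after their values were seen. The lists, the set and the comparison were chosen with earlier results of these data known. Alternatives covered scaling, filters, DESeq2 1.42.0, limma 3.58.1 (voom, with and without quality weights), dispersion, a fit with the untreated ICH libraries, a replicate block, thresholds and each library left out; a GC and length correction and the joint omission of sham replicates 1 and 5 were added after seeing the data. Promoter sequences came from RefSeq on GRCm38.p6.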

Additional observations from a re-analysis of the deposited data

Results flagged for a closer look

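Within groups of 5 libraries, a library was looked at again when its gap to the nearest other library, over the range of the group, was above Dixon's 95% critical value of 0.71. This was met in 17 of 204 groups of values. The critical value lets about 1 in 20 independent, normally distributed groups pass. The groups here were mostly CPM of chosen genes and list means from the same libraries, so their count cannot be read against that rate. Explanations were not tested.

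NYKD replicate 5 stood highest in its group for matrix and macrophage genes. It had 464 CPM of Col3a1, 1304 CPM of Fn1, 527.5 CPM of Thbs1, 20.1 CPM of F7 and 48.7 CPM of Pf4, and its mean log2 CPM over the collagen and matrix list was 7.32. The same library was lowest among NYKD mice for the activity-regulated list, at 3.21. NYKD replicate 2 was highest for Mt2, at 54.84 CPM, and NYKD replicate 1 was lowest for the choroid plexus and ependyma list, at 2.72.

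Sham replicate 1 stood lowest in its group for striatal genes, with 199.2 CPM of Ppp1r1b, 36.36 CPM of Drd2 and a mean log2 CPM of 6.19 over the striatal list. Sham replicate 4 was highest for Mmp13, at 0.512 CPM, and for Col3a1, at 14.27 CPM, and lowest for the respiratory chain list, at 7.55. Sham replicate 3 was lowest for Cp, at 20.05 CPM, in a group whose values were very close together. Sham replicate 5 had the fewest genes with a count, 22527.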

How the results depend on the processing

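No called named gene changed direction in any alternative, while 6 uncalled ones had both signs. Of the 177 named genes that were called, 148 were called in every alternative that kept the call threshold, and 164 with each library left out. The fold minimum and the stricter adjusted p below took no part in that count. The count of 5114 called genes (3242 raised, 1872 lowered) was 3919 to 6067 with 1 library left out, lowest without sham replicate 3 and highest without sham replicate 5, with 2328 to 3513 raised and 1258 to 2554 lowered. Voom with quality weights called 7804 genes, 3446 of them lowered. A fold minimum of 1.5 left 1573 (1401 raised, 172 lowered) and an adjusted p under 0.01 left 2718 (2108 raised, 610 lowered). DESeq2 called 6018, RLE scaling 5222, library totals 5020, no filter 4482, the fit with the ICH libraries 4225, and the added GC and length correction 5344. Raised genes made up 63.4% of calls, 57.2% with RLE scaling and 54.8% by DESeq2. With the replicate number as a block 3940 genes were called, of which 1218 were lowered. Same-numbered NYKD and sham libraries deviated together for replicates 1 and 2 (correlations 0.168 and 0.258) and not for replicates 3, 4 and 5 (-0.169, -0.060 and -0.190). Replicate 2 alone correlated best with its own number. These correlations are too few to show whether same-numbered libraries shared a processing step. Split by length into 3 nearly equal bins, the longest genes held 1366 raised and 450 lowered, the shortest 740 and 749. Genes with few counts, such as cytokines and neutrophil and lymphocyte markers, were often too shallow to test. The causes of these shifts were not tested.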

Other observations

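Families defined by symbol, chosen after values were known, add groups that the lists leave out, and their counts stand against 18.9% raised and 10.9% lowered over all genes. Of 25 tested integrin genes, which encode cell adhesion receptors, 18 were raised and none was lowered (median log2 fold change 1.35). The genes Fcgr1, Fcgr2b, Fcgr3 and Fcgr4, which encode Fc gamma receptors for antibody-coated targets, were all raised (median 2.29), as were 4 of 5 galectin genes (1.99), 7 of 9 annexin genes (1.06), 7 of 10 S100 genes (0.94) and 11 of 18 C-type lectin domain genes (1.47). Kinesin genes, which include mitotic motors, were raised for 15 of 35 members (0.39). Of ion channel and receptor genes, the following were lowered: 8 of 24 voltage-gated calcium channel genes (-0.43), 5 of 16 ionotropic glutamate receptor genes (-0.38), 3 of 7 metabotropic glutamate receptor genes (-0.32) and 15 of 77 potassium channel subunit genes, with 6 raised (-0.19). Cytosolic ribosomal protein genes were called for 5 of 79 members, 4 of them raised, and their reads can be shared with processed copies.

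Long non-coding genes, and models that GENCODE marks TEC, were called lower more often than higher. Of 1325 tested long non-coding genes, 47 were raised (3.55%) and 169 were lowered (12.8%), with a median of -0.39. Of 372 TEC models, 8 were raised (2.15%) and 52 were lowered (13.98%), with a median of -0.54. Against 18.9% raised and 10.9% lowered over all genes, their raised shares departed more than their lowered shares. Genes of other classes numbered 693, with 46 raised and 29 lowered. Protein-coding genes numbered 14734, with 3141 raised and 1622 lowered (0.03). Among named transcripts, Dbpht2 ran at 19.1 to 41.0 CPM in NYKD mice and 54.6 to 103 CPM in sham mice (log2 fold change -1.28 ± 0.24, adjusted p = 0.00226 by edgeR), and the antisense transcript Brip1os at 37.3 to 59.9 CPM in NYKD mice and 10.6 to 21.9 CPM in sham mice (1.53 ± 0.19, adjusted p = 0.000127 by edgeR). Reads of Brip1os cannot be told from those of the opposite strand.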
